A study of Mus musculus with 2 samples.

Results

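The protein genes of the cytosolic ribosome were followed through 4 states of single mouse muscle stem cells. A gene belonged to the set when it is annotated as protein-coding and its symbol is Rps or Rpl with a number, or Rpsa, Rplp0, Rplp1 or Rplp2, while Rps6k kinase genes and rows named as pseudogenes were kept apart. The annotation holds 83 such genes, and 76 of the 21216 gene rows belonged to them, 30 of the small subunit and 46 of the large subunit. The other 7 were not analysed here, and the row of Rps4l, which is not annotated as protein-coding, stayed out.

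Muscle stem cells, the resident precursors of skeletal muscle fibres, were sorted into plates of 384 wells, and polyadenylated RNA was tagged in each well by a modified CEL-Seq2 protocol, which counts tags from the 3′ ends of transcripts. After 96 h in DMEM, 121 kept cells from galactose (10 mM) and 120 from low glucose (5 mM) filled plate 2, and 113 from high glucose (25 mM) shared plate 1 with 102 cells that the well sheet names quiescent. The labels list no culture for these last cells, which are called freshly isolated here. The 3 media also contained penicillin and streptomycin, 1 mM sodium pyruvate, fetal bovine serum and horse serum at 10% each, 0.05% chick embryo extract and 2.5 ng/ml of the growth factor bFGF, while strain, age, sex and number of animals are not given in the labels. There was 1 library pool per condition, so no test between conditions was possible. Every interval below is a 95% counting interval, exact Poisson for a level in counts scaled to a gene total of 1e6 (CPM), exact binomial for a share of counts and exact conditional for a ratio of 2 pools, and it leaves out the spread between cells, animals and libraries. The 4 conditions lay in separate sets of 6 plate rows, and position and condition cannot be told apart. Comparisons of low glucose or galactose with high glucose also cross plates, where plate and medium cannot be told apart. A total of 200 well barcodes were used on both plates.

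Pool depth was 2035682 gene counts in galactose, 1734279 in low glucose, 887611 in high glucose and 284109 in the freshly isolated pool. Median counts per cell were 14496, 13371, 6747 and 2536 in the same order. The median ratio of gene counts to counts of spike-ins, synthetic RNAs added to the wells, was 47.8, 47.7, 57.0 and 18.3. All 12 markers of muscle stem cells and myoblasts had a row, with a summed level of 2174, 2146, 2080 and 6649 CPM, and Pax7 (66.3, 54.8, 56.3 and 119.7 CPM) and Myf5 (366, 369.6, 286 and 394 CPM) were detected in each pool. Des had only 1, 3, 1 and 10 counts, and Myod1 and Sdc4 stood at 2446 and 2094 CPM in the freshly isolated pool. In high glucose over freshly isolated cells, 10 of the markers had a mean of at least 50 CPM. Of these, 8 were at least 1.5-fold lower and 1 was that much higher, beside 20.1% and 33.9% over all rows. The 4 fibro-adipogenic markers of 6 with a row summed to 31.4, 39.2, 135 and 1091 CPM, with Col3a1 at 873 CPM in the freshly isolated pool and Dcn at 0 in galactose, high glucose and freshly isolated cells. The 6 smooth muscle and pericyte markers summed to 55.02, 66.9, 212 and 412 CPM, and the 5 endothelial markers to 4.42, 5.77, 40.6 and 80.95 CPM. The 2 immune markers of 6 with a row summed to 8.84, 2.88, 7.89 and 3.52 CPM, and glial, myofibre and tenocyte markers to at most 31.7 CPM in any pool.

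A ribosome is assembled from ribosomal RNA and one copy of most of these proteins, with the small subunit reading the mRNA and the large subunit joining amino acids. Messenger RNAs of ribosomal proteins begin with a tract of pyrimidines, and their translation follows growth signals through mTOR and the RNA-binding protein Larp1. Muscle stem cells are small and make little protein at rest, and they enlarge when they enter the cell cycle. Mammalian genomes also carry many processed pseudogenes, copies of ribosomal protein mRNAs inserted elsewhere by reverse transcription, whose sequence can stay nearly identical to the parent gene.

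How far that identity reaches bears on what a count of a ribosomal protein gene holds. The last 60 coding bases before the stop codon are therefore shown for 3 genes and for pseudogene rows with many counts in their families. Sequences come from GENCODE transcripts on GRCm38 and are written 5′ to 3′, with capitals at bases that differ from the parent gene. The Rpl5 stretch lies at chr5:107907934-107907993 on the plus strand. Gm15500 lies at chr7:114705273-114705332 on the minus strand and Rpl5-ps2 at chr2:154704637-154704696 on the plus strand.
Rpl5: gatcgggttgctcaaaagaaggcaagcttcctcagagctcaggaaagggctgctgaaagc
Gm15500: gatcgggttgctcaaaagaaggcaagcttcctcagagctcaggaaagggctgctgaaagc
Rpl5-ps2: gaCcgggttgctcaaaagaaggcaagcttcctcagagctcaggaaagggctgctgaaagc

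Rpl5, which joins the 5S ribosomal RNA to the large subunit, had 3424 counts over the 4 pools, against 20548 in the row of Gm15500 and 10131 in that of Rpl5-ps2. Gm15500 had no mismatch to Rpl5 in this stretch. Rpl5-ps2 had 1, T3C, with positions counted from 1 at the 5′ end of the stretch and the parent base first.

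The second set shows Rpsa, the small subunit protein also known as a laminin receptor, whose own row was nearly empty. Rpsa ends at chr9:120131432-120131491 on the plus strand, Rpsa-ps10 holds the stretch at chr3:150072658-150072717 on the minus strand, Rpsa-ps5 at chr11:28957546-28957605 on the plus strand and Rpsa-ps4 at chr11:33038819-33038878 on the minus strand.
Rpsa: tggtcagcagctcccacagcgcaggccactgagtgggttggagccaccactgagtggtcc
Rpsa-ps10: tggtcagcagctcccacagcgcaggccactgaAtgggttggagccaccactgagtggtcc
Rpsa-ps5: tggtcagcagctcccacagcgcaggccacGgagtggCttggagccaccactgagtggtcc
Rpsa-ps4: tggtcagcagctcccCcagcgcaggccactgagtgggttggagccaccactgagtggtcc

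The differences from Rpsa were G33A in Rpsa-ps10, T30G and G37C in Rpsa-ps5 and A16C in Rpsa-ps4. The row of Rpsa held 60 counts over the 4 pools. The rows of Rpsa-ps10, Rpsa-ps5 and Rpsa-ps4 held 7738, 7063 and 6827 counts.

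The third set shows Rplp0, the scaffold of the ribosomal stalk, at chr5:115563382-115563441 on the plus strand and its copy Gm8730 at chr8:102864848-102864907 on the minus strand, whose rows held similar counts, 12668 for Rplp0 and 13944 for Gm8730.
Rplp0: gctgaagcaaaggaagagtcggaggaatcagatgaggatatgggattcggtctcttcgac
Gm8730: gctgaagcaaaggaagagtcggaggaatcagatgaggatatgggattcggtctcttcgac

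Of 785 pseudogene rows that could be compared with their parent over these 60 bases, 161 had no mismatch and 400 had at most 2. Over the aligned coding sequence the median identity was 95.5%.

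The ribosomal protein genes took a larger share of counts in the 3 cultured pools than in the freshly isolated one. The 76 genes held 3.66% of gene counts in galactose (3.63 to 3.68), 3.79% in low glucose (3.76 to 3.82), 3.11% in high glucose (3.07 to 3.14) and 2.15% in freshly isolated cells (2.10 to 2.21). Within plate 1, the high glucose share was 1.44 times that of freshly isolated cells (1.40 to 1.48). Shares of single plate rows ran from 3.36 to 4.43% in galactose, 3.45 to 4.27% in low glucose, 2.95 to 3.31% in high glucose and 2.08 to 2.29% in freshly isolated cells. The rows of high glucose and freshly isolated cells did not overlap, although plate rows are wells of 1 pool and not replicates. As a share of counts, rows of the mitochondrial genome were highest in the freshly isolated pool, at 1.92% in galactose, 1.89% in low glucose, 1.51% in high glucose and 3.48% there. Per 1000 spike-in counts these mitochondrial rows had 909.5 in high glucose and 682.5 in the freshly isolated pool, so on that scale they were higher in high glucose. With them left out of the total, the log2 ratio of the summed share in high glucose over freshly isolated cells was 0.50, against 0.53 with them.

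**Figure D1:**
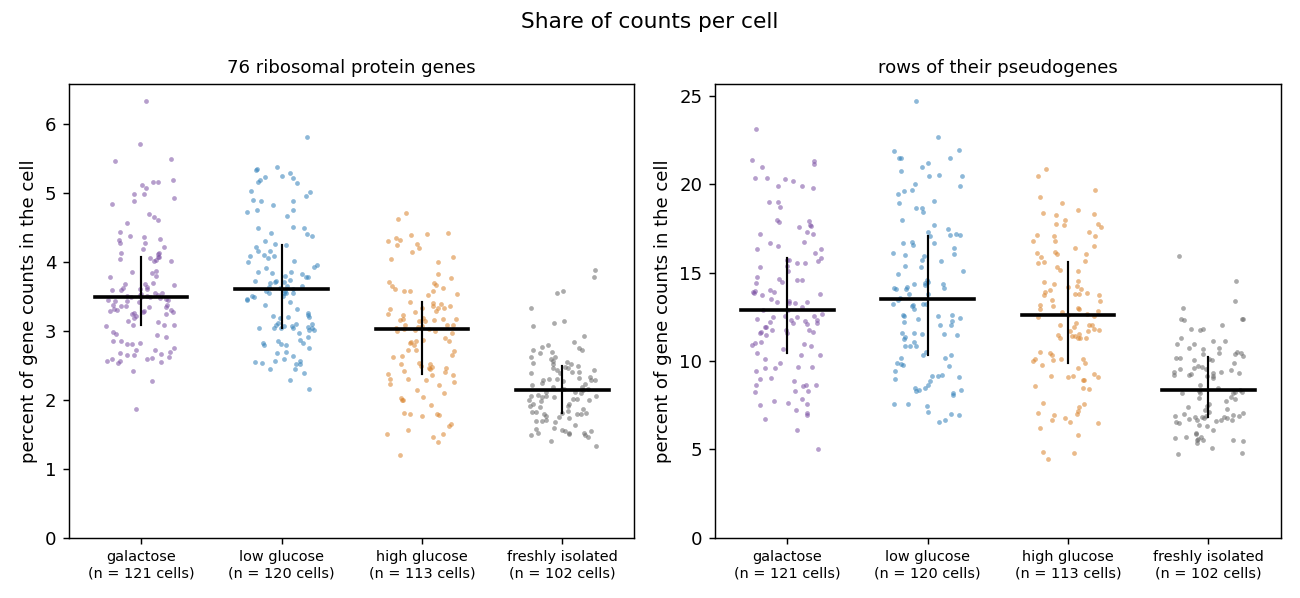
Percent of the gene counts of each cell that fell on the 76 ribosomal protein genes (left) and on rows of their pseudogenes (right), by condition. Points are cells, thick lines medians and thin lines quartiles; the median for the genes is 3.49% in galactose, 3.61% in low glucose, 3.03% in high glucose and 2.14% in the freshly isolated pool.

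Single cells followed the same order as the pools. The share per cell ran from 1.87 through a median of 3.49 to 6.32% in galactose, from 2.16 through 3.61 to 5.80% in low glucose, from 1.2 through 3.03 to 4.70% in high glucose and from 1.32 through 2.14 to 3.88% in freshly isolated cells. The 4 distributions overlapped, and the quartiles of high glucose (2.38 to 3.41%) overlapped those of freshly isolated cells (1.80 to 2.49%). With every cell thinned to 1000 counts the medians were 3.5, 3.6, 2.8 and 2.05% in the same order.

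Per spike-in count, which keeps the amount of RNA per well in the measure, the difference between high glucose and freshly isolated cells was larger. The genes had 1898 counts per 1000 spike-in counts in galactose, 1910 in low glucose, 1871 in high glucose and 423 in the freshly isolated pool. The ratio of high glucose to freshly isolated cells was 4.42 (4.30 to 4.55) on this scale. The ratio of galactose to low glucose was 0.994 (0.983 to 1.00), and that of low glucose to high glucose was 1.02 (1.01 to 1.04), against 1.22 in shares of counts.

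Wells with 3 or more markers of another cell type numbered 0 in galactose, 0 in low glucose, 3 in high glucose and 5 in the freshly isolated pool. Without them the log2 ratio of the summed share in high glucose over freshly isolated cells was 0.53, the same as with them. This filter could flag no immune, glial or tenocyte well, since only 2 markers of each type had a row. Among fibro-adipogenic markers, Dcn had 0 counts in either pool of plate 1, so a well there needed Ly6a. Ly6a had only 4 counts in the high glucose pool and 5 in the freshly isolated pool. The unchanged ratio therefore says little about wells of these types. The part of the remaining marker counts in the difference was not tested.

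Plate 1 held the comparison of cells after 96 h of growth in high glucose with cells that were freshly isolated. Of the 76 genes, 66 reached a mean of 50 CPM over the 2 pools. Of these, 27 were at least 1.5-fold higher in high glucose (40.9%) and none was 1.5-fold lower. Over all rows at the same level, 33.9% were that much higher and 20.1% that much lower, and over protein-coding rows outside the set 28.8% were higher and 24.0% lower. The median log2 ratio, with 1 CPM added to each level, was 0.47 for the ribosomal protein genes, 0.25 for all rows and 0.10 for the other protein-coding rows. The share of higher genes was not far above that of all rows, which include the set and its pseudogene rows. No gene of the set passed the fold on the lower side. By subunit, 9 of 28 small subunit genes and 18 of 38 large subunit genes were higher. With TMM factors, which moved the median of all rows by -0.25 on the log2 scale, 13 genes were higher and none lower, and with median-of-ratios factors 12 were higher. The share over all rows with these factors is not given here. The 10 genes below 50 CPM are described by their levels only.

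**Figure D2:**
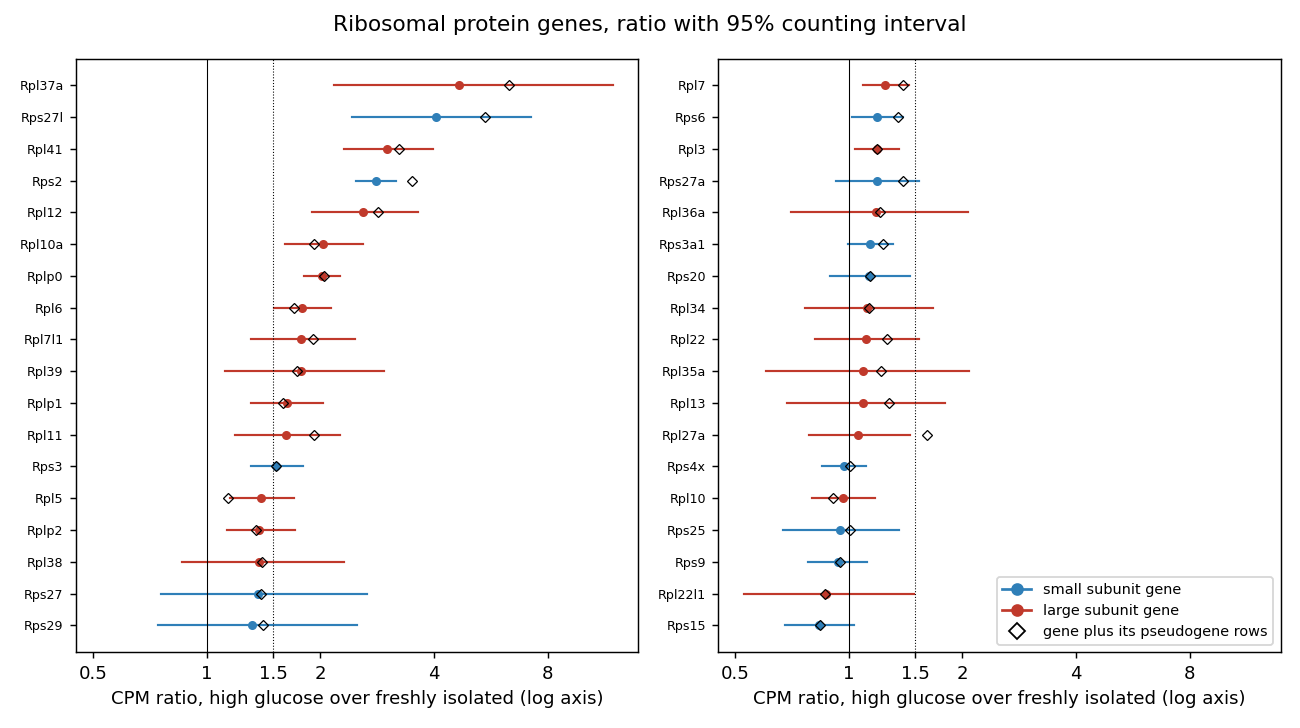
Ratio of CPM in high glucose over freshly isolated cells for 36 ribosomal protein genes with a mean of at least 50 CPM, on a log axis; filled circles with lines are the gene rows with 95% counting intervals, open diamonds the gene plus its pseudogene rows. Rpl37a, Rps27l and Rpl41 stand highest, and Rps15 stands lowest; the dotted line marks a ratio of 1.5.

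Rps2, a small subunit protein near the mRNA entry channel, was among the rows with the most counts, at 3092 CPM in galactose, 3104 in low glucose, 2838 in high glucose and 1014 in the freshly isolated pool. The cultured pools lay close together and the freshly isolated pool apart. The ratio of high glucose to freshly isolated cells was 2.80 (2.48 to 3.17), and plate rows ran from 2630 to 3116 CPM in high glucose and from 916.6 to 1226 CPM in freshly isolated cells.

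Rps27l, a paralogue of Rps27 that p53 induces, had 287 CPM in galactose, 309 in low glucose, 228 in high glucose and 56.3 in the freshly isolated pool. The ratio of high glucose to freshly isolated cells was 4.04 (2.43 to 7.21). Rps27 itself had 90.9, 73.2, 67.6 and 49.3 CPM in the same order, with a ratio of 1.37 (0.758 to 2.66), an interval that holds 1. The paralogue had more counts than Rps27 in each pool. With every cell thinned to 1000 counts, Rps27l was detected in 23.1% of cells in galactose (16 to 31.7), 25.8% in low glucose (18.3 to 34.6), 24.1% in high glucose (16.5 to 33.1) and 4.90% in freshly isolated cells (1.61 to 11.1). Thinning left out 1 high glucose cell, and without thinning the shares were 91.7, 96.7, 77.0 and 14.7% in the same order.

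Rpl37a, a zinc-binding protein of the large subunit, had the highest ratio at 4.66 (2.18 to 11.9), with 132 CPM in galactose, 149 in low glucose, 115 in high glucose and 24.6 in the freshly isolated pool, where it rested on 7 counts. With every cell thinned to 1000 counts, Rpl37a was detected in 11.6% of high glucose cells (6.33 to 19.0) and 5.88% of freshly isolated cells (2.19 to 12.4), intervals that overlap, and without thinning in 48.7 and 6.86%. Thinning was a single random draw. It kept 6 of the 7 freshly isolated cells with a count, and 13 of the 55 high glucose cells. The overlap therefore cannot decide whether the difference holds at equal depth. Rpl41, a very short basic protein at the subunit interface, had 857, 898, 657 and 218 CPM in the same order and a ratio of 3.01 (2.31 to 3.98). Both were lowest in freshly isolated cells.

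The ribosomal stalk, which recruits the translation factors that hydrolyse GTP, had higher levels in each cultured pool than in the freshly isolated one. Its scaffold Rplp0 had 2491 CPM in galactose, 2696 in low glucose, 2840 in high glucose and 1408 in the freshly isolated pool, with a ratio of high glucose to freshly isolated cells of 2.02 (1.81 to 2.25). Rplp1, one of the acidic proteins of the stalk, had 826, 879, 585 and 359 CPM, with a ratio of 1.63 (1.31 to 2.03). Rplp2, its partner, had 730.5, 801.5, 560 and 405 CPM, with a ratio of 1.38 (1.13 to 1.71). Rpl12, which sits at the base of the stalk, had 338.5, 385, 411 and 158 CPM, with a ratio of 2.60 (1.90 to 3.62).

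Several abundant genes had levels in high glucose near or below those of freshly isolated cells. Rps15, whose tail reaches the decoding site, had 546 CPM in galactose, 543 in low glucose, 384 in high glucose and 461 in the freshly isolated pool, with a ratio of high glucose to freshly isolated cells of 0.833 (0.679 to 1.03). Rps4x, encoded on the X chromosome, had 1391, 1395, 960 and 989 CPM in the same order and a ratio of 0.971 (0.847 to 1.11). Rps9 had a ratio of 0.934 (0.780 to 1.12), and Rpl10, which joins the large subunit late in its assembly, had one of 0.967 (0.801 to 1.17). The intervals of the Rps15, Rps4x, Rps9 and Rpl10 rows all held 1. With pseudogene rows added, Rpl10 stood at 0.911 (0.841 to 0.987), an interval below 1, while those of Rps15, Rps4x and Rps9 still held 1. Among the 66 gene rows at a mean of 50 CPM, 36 had an interval wholly above 1 and 1 had an interval wholly below 1. Such counts over all rows are not given here. Rps3a1, a small subunit protein, had 1491, 1535, 1052 and 922 CPM in galactose, low glucose, high glucose and freshly isolated cells, with a ratio of high glucose to freshly isolated cells of 1.14 (0.994 to 1.31). Per spike-in count Rps15 was 2.56-fold higher in high glucose, beside 4.42-fold for the 76 genes summed. That scale moved the median of all rows by 1.59 (log2) in this comparison.

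The members that take part in other pathways lay between these ends. Rpl5 and Rpl11, which with 5S ribosomal RNA bind the p53 regulator Mdm2, had ratios of high glucose to freshly isolated cells of 1.39 (1.15 to 1.70) and 1.62 (1.19 to 2.25). Rps6, the target of S6 kinase, had 1191 CPM in galactose, 1233 in low glucose, 922 in high glucose and 774 in the freshly isolated pool, with a ratio of 1.19 (1.02 to 1.39). Rps3, which lines the mRNA entry site and also acts in DNA repair, had 1218, 1225, 1058 and 690 CPM in the same order, with a ratio of 1.53 (1.31 to 1.80). Rps27a, made as a fusion to ubiquitin, had a ratio of 1.19 (0.927 to 1.53). Rpl38, known in mouse for the translation of Hox mRNAs, had one of 1.38 (0.862 to 2.31), and X-linked Rpl36a one of 1.18 (0.702 to 2.07).

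**Figure D3:**
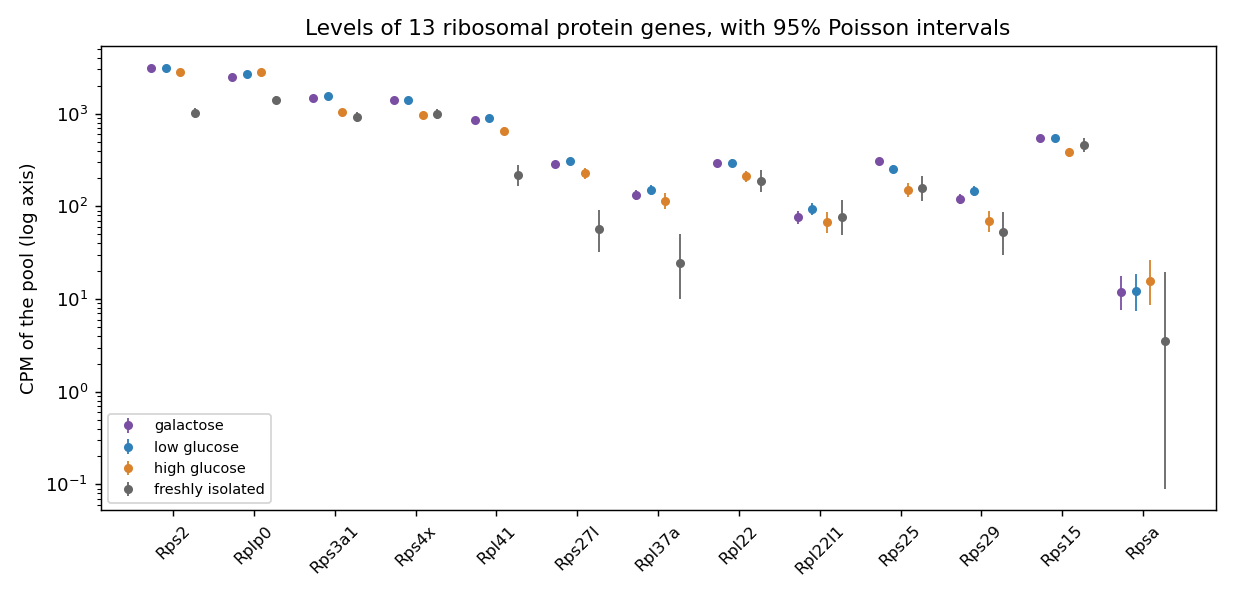
CPM of 13 ribosomal protein genes in the 4 pools, on a log axis, with 95% Poisson intervals that cover counting error only. Rps27l, Rpl37a and Rpl41 lie lowest in freshly isolated cells, Rps15 is higher there than in high glucose, and Rpsa stays under 20 CPM throughout.

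Galactose and low glucose were compared within plate 2, in media whose other listed components were the same. The summed share was 0.965 times as high in galactose as in low glucose (0.955 to 0.975). Of 68 genes at 50 CPM or more, none was 1.5-fold higher and none 1.5-fold lower, and over all rows 0.125% were higher and 0.175% lower, so few rows of any kind passed this fold. The median log2 ratio was -0.06 for the set and 0.01 for all rows, with 54 of the 68 genes below 0, beside 1876 of 3997 over all rows. Rps25, a small subunit protein needed for internal initiation on some viral RNAs, had 310.0 CPM in galactose and 255 in low glucose, a ratio of 1.22 (1.08 to 1.38). Rpl35a had 47.65 and 70.9 CPM, a ratio of 0.672 (0.509 to 0.884), and Rpl34 had 170.5 and 225 CPM, a ratio of 0.758 (0.654 to 0.878). Rpl24 had 61.9 and 83.6 CPM, a ratio of 0.740 (0.578 to 0.946). For Rpl24 and Rpl35a, adding the pseudogene rows brought the ratio to 0.992 and 0.988.

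**Figure D4:**
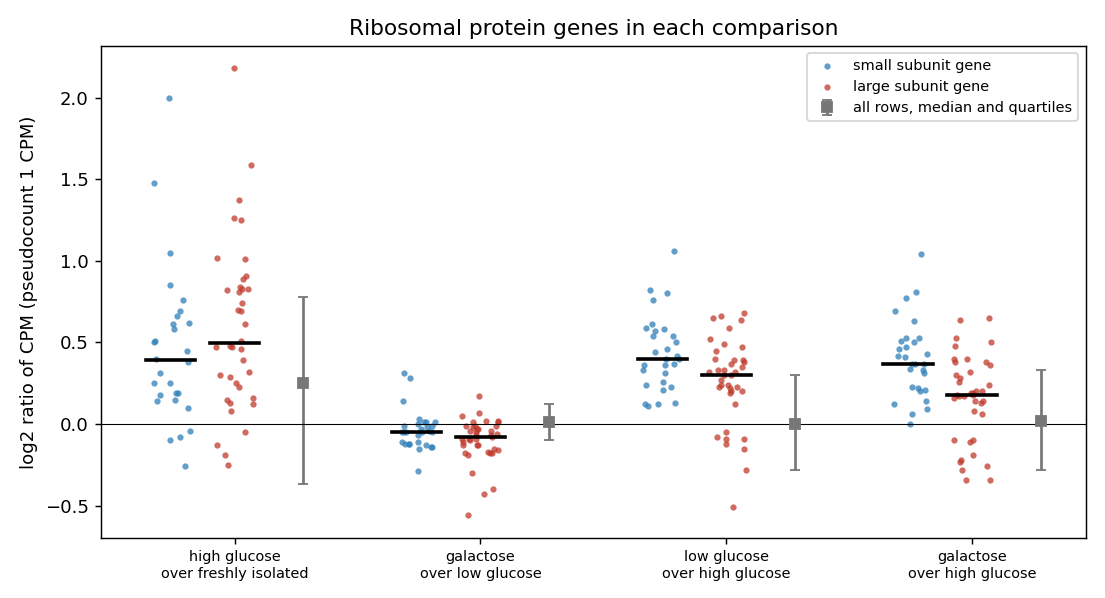
Log2 ratio of CPM (1 CPM added) for ribosomal protein genes of the small and large subunit with a mean of at least 50 CPM in each comparison; points are genes, black lines medians, and grey squares with bars the median and quartiles of all rows. Galactose over low glucose spans the narrowest range, and low glucose over high glucose lies above 0 for 60 of 68 genes, beside 2041 of 4067 over all rows.

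Low glucose was compared with high glucose across plates. The summed share was 1.22 times that of high glucose (1.2 to 1.24), with 1.29 (1.27 to 1.32) for the small subunit and 1.16 (1.14 to 1.18) for the large subunit. Of 68 genes, 11 were at least 1.5-fold higher in low glucose (16.2%) and none was 1.5-fold lower, beside 8.83% higher and 9.47% lower over all rows and 8.88% and 7.03% over protein-coding rows outside the set. All 29 small subunit genes at this level were above 1, as were 31 of 39 of the large subunit, beside 2041 of 4067 over all rows. The ratio of summed small to large subunit counts was 0.965 in galactose, 0.937 in low glucose, 0.840 in high glucose and 0.878 in the freshly isolated pool.

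Among genes above 1, the intervals of Rps29, Rps20 and Rps25, all of the small subunit, lay among the farthest from 1. Rps29 had 147 CPM in low glucose and 69.85 in high glucose, a ratio of 2.11 (1.59 to 2.83). Rps20 had 620 and 355 CPM (1.75, 1.54 to 1.99), and Rps25 had 255 and 150 CPM (1.70, 1.40 to 2.08). In the large subunit, Rpl27a had a ratio of 1.60 (1.36 to 1.89). Rpl13 (0.699, 0.521 to 0.941), Rpl10a (0.821, 0.735 to 0.917), Rpl6 (0.919, 0.845 to 0.999) and Rplp0 (0.949, 0.904 to 0.997) stood below 1, as did Rpl3 with an interval that held 1 (0.938, 0.868 to 1.01). The row of Rpl13 held 2.12% of the counts of the gene and its pseudogene rows together, and their summed ratio was 0.954 (0.914 to 0.996). With pseudogene rows added, the other ratios were 0.874 for Rpl10a, 0.986 (0.951 to 1.02) for Rpl6, 0.924 for Rplp0 and 0.91 (0.876 to 0.944) for Rpl3. Per spike-in count the summed ratio was 1.02, with 1.08 (1.06 to 1.1) for the small subunit and 0.969 (0.951 to 0.988) for the large subunit. On that scale, which moved the median of all rows by -0.26 (log2), 1 gene was 1.5-fold higher and 1 lower.

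Galactose over high glucose shares the galactose pool and the high glucose pool with the comparisons above. The summed ratio was 1.18 (1.16 to 1.19), and 7 of 68 genes (10.3%) were 1.5-fold higher and none 1.5-fold lower, beside 10.7% higher and 11.2% lower over all rows. Rps25 had the highest ratio of the 68, at 2.07 (1.71 to 2.51).

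Paralogues gave mixed pictures. Rpl22, an RNA-binding protein of the large subunit, had 294 CPM in galactose, 297 in low glucose, 211 in high glucose and 190 in the freshly isolated pool. Its paralogue Rpl22l1, which Rpl22 represses, had 76.1, 94.0, 67.6 and 77.4 CPM. The ratios of high glucose to freshly isolated cells were 1.11 (0.815 to 1.53) for Rpl22 and 0.873 (0.528 to 1.49) for Rpl22l1, both with intervals that held 1. Rpl7l1 had 256, 271, 301 and 169 CPM and a ratio of 1.78 (1.31 to 2.47), and Rpl7 had 1261, 1296, 1098 and 880 CPM and a ratio of 1.25 (1.09 to 1.44). Rpl39, at the exit of the peptide tunnel, had 182, 180, 137 and 77.4 CPM, whereas Rpl39l, its paralogue of male germ cells, had 1 count in galactose, 1 in low glucose, 1 in high glucose and 0 in the freshly isolated pool. Rpl10l, a germ cell paralogue of Rpl10, had 0, 1, 3 and 0 counts. Rpl3, a large subunit protein at the peptidyl transferase centre, had 1048, 1054, 1123 and 947 CPM. Besides Rpl39l and Rpl10l, Rpl18 and Rpl32 stayed under 10 CPM in all pools.

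Pseudogene rows held far more counts than the genes themselves. By symbol, 267 rows were named as pseudogenes of a ribosomal protein gene, and 619 further rows aligned best to the coding sequence of one with at least 90% identity over at least 50% of it. Of the 886 rows, 6 are typed as protein-coding. Together they took 13.5% of all gene counts in galactose, 14.3% in low glucose, 13.5% in high glucose and 8.40% in the freshly isolated pool. The 267 rows found by symbol alone took 4.84, 5.12, 4.70 and 3.17% in the same order, more than the 76 genes in each pool. With both kinds of row added, the ribosomal protein share was 17.2, 18.1, 16.6 and 10.6%.

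**Figure D5:**
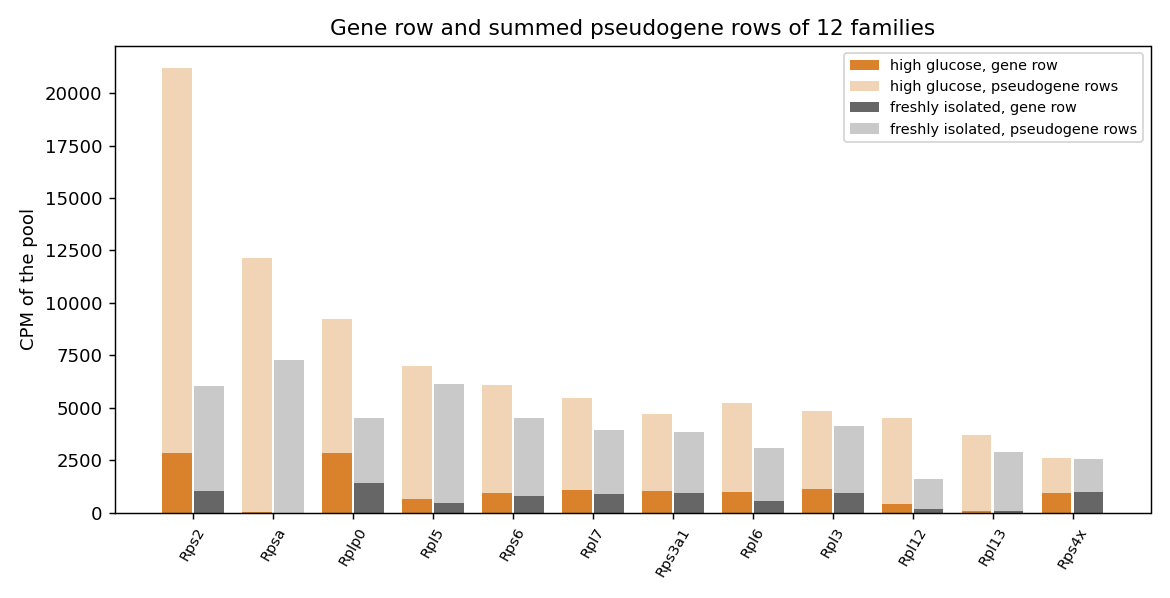
CPM of the gene row (solid) and of the summed pseudogene rows (pale) of 12 families with high sums, in high glucose and freshly isolated cells. For Rpsa, Rpl5 and Rpl13 the pale part makes up nearly the whole bar.

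The median gene row held 25.5% of the counts of its family. For 58 of the 76 genes the row held under 50%, and for 14 it held under 10%. Rpl18 held 0.0167%, with 1 count in high glucose, 1 in the freshly isolated pool and 0 in the others, while its family reached 2463 CPM in galactose and 1559 CPM in freshly isolated cells. The Rpsa family came second by its sum in galactose, with 10060 CPM in galactose and 7282 CPM in freshly isolated cells, against 11.8 and 3.52 CPM for its own row. Rpl32 (2.09%), Rpl13 (2.12%) and Rpl23 (2.64%) were next. The level of Rpsa, Rpl18, Rpl32, Rpl13 or Rpl23 mRNA cannot be read from the gene's own row alone.

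Counts were also divided within families more evenly than between them. For each pair of rows with at least 2000 counts, the split of a well's counts between the pair was compared over wells with a binomial split, for which the ratio of observed to binomial variance is 1 when each count is a separate molecule placed on 1 row. Among 102 pairs of rows of the same family the median ratio was 0.516 and 93 were under 1. Among 351 pairs of genes of different families the median was 1.33 and 1 was under 1. The pair Gm8730 and Rplp0, identical in the stretch shown above, had 0.274, and Rpl7 with Rpl7-ps7 had 0.293. Whether a molecule was counted on more than 1 row was not tested, and the sources used here do not state how reads with several matches were handled. Family sums and their intervals carry that limit. Of the 9 same-family pairs at 1 or above, 5 were in the Rpl5 family. Gm15500 with Rpl5 had 2.61 and Gm15500 with Rpl5-ps1 had 4.38.

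Gm15500 and Rpl5 also differed across conditions. Gm15500 had 4677 CPM in galactose, 4464 in low glucose, 2717 in high glucose and 3076 in the freshly isolated pool. Rpl5 had 683, 765, 648 and 465 CPM in the same order. Rpl5 was higher in high glucose than in the freshly isolated pool, and Gm15500 was lower. The other rows among the 6 with the most counts were higher in high glucose, with 2998 CPM in high glucose and 1580.0 CPM in the freshly isolated pool for Gm8730, 1709 and 1418 CPM for Rpl5-ps2, 1840 and 598 CPM for Gm7432 (a copy of Rps2), 1715 and 1102 CPM for Rpsa-ps10 and 1776 and 809.5 CPM for Gm9625 (a copy of Rplp0).

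With pseudogene rows added, the summed share was still higher in high glucose than in the freshly isolated pool, by more than for the genes alone. The pseudogene rows alone had a ratio of high glucose to freshly isolated cells of 1.61 (1.59 to 1.63). Of 74 families with a sum of at least 50 CPM, 31 were 1.5-fold higher in high glucose and none was 1.5-fold lower. Over all rows, which include the rows of these families, 33.9% were higher and 20.1% lower. Over protein-coding rows outside the set 28.8% were higher and 24.0% lower. The share of higher families was not far above that of all rows. In 56 of 60 families with both kinds of row at that level, the gene row and the pseudogene sum lay on the same side of a ratio of 1, although rows of a family may not be independent. The Rps2 ratio of high glucose to freshly isolated cells was 3.50 with its pseudogenes added, that of Rps27l 5.47 and that of Rpl37a 6.30. For low glucose over high glucose the pseudogene rows differed less, with a ratio of 1.06 (1.05 to 1.06), and galactose over high glucose gave 0.999 (0.992 to 1.01). In low glucose over high glucose, Rps2 stood at 1.09 (1.04 to 1.15) for its row, above 1, and at 0.870 for its family, below 1.

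A group of 8 genes, set apart after the values were seen, held at least 90% of their family counts summed over the pools, among them Rps3, Rps27, Rpl7l1, Rplp1 and Rplp2. Their summed share was 0.546% in galactose, 0.559% in low glucose, 0.447% in high glucose and 0.308% in the freshly isolated pool. The ratio of high glucose to freshly isolated cells was 1.45 (1.35 to 1.56), that of galactose to low glucose 0.977 (0.951 to 1.00) and that of low glucose to high glucose 1.25 (1.21 to 1.30). Each lay close to the ratio of all 76 genes.

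Other parts of the translation machinery were read from lists of known genes, with the same minimum and fold. Beside each count stand the shares over all rows in high glucose over freshly isolated cells, 33.9% higher and 20.1% lower, with a median log2 ratio of 0.25. Of 13 genes with terminal oligopyrimidine mRNAs, mostly translation factors but also Npm1, Nap1l1 and Tpt1, 7 were 1.5-fold higher and none was lower, with a median of 0.61. Npm1, a nucleolar chaperone, had 2280 CPM in high glucose and 936 in the freshly isolated pool (2.44, 2.14 to 2.78). Eef1g had 1441 and 588 CPM (2.45, 2.08 to 2.90), whereas Eef1a1, the main elongation factor, had 4573 and 4667 CPM (0.980, 0.921 to 1.04) and Tpt1 had 962 and 1154 CPM (0.833, 0.733 to 0.949).

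Of 14 genes of ribosome biogenesis at 50 CPM or more, 8 were higher and none lower, with a median of 0.70, beside 33.9% higher and 20.1% lower over all rows. Dkc1, the pseudouridine synthase of guide RNA particles, had 225 CPM in high glucose and 59.8 in the freshly isolated pool (3.77, 2.29 to 6.59), and Ebna1bp2 had 191.5 and 63.4 CPM (3.02, 1.86 to 5.22). Of 6 genes of the 5S particle and p53, 4 reached 50 CPM and 2 of these were higher. The lists share genes, and Rrs1 was counted as higher both here and in ribosome biogenesis. Of 4 snoRNA host genes at that level 3 were higher, among them Rack1, which is also in the list that follows. Of 3 nascent chain partners 1 was higher. These numbers are too small to set against the share over all rows. Of 3 ribosomal proteins outside the symbol rule, 2 were higher, Rack1 with 2170 and 1345 CPM (1.61, 1.45 to 1.81) and Rpl36al with 81.1 and 38.7 CPM (2.10, 1.10 to 4.38), while Fau had 139 and 183 CPM (0.757, 0.543 to 1.07).

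Regulators split. Of 8 genes that control ribosome synthesis, 5 were higher in high glucose and 1 was lower, beside 33.9% and 20.1% over all rows. The higher ones were the RNA polymerase I factor Rrn3 (3.04, 1.47 to 7.30), with 8 counts in the freshly isolated pool, Polr1a (2.14, 1.26 to 3.88) and Maf1 (1.83, 1.14 to 3.06). Ubtf (1.69, 0.948 to 3.24) and Polr1b (1.6, 0.852 to 3.27) were also higher, with intervals that held 1. The lower gene was Myc (0.659, 0.587 to 0.742). Mdm2, which Rpl5 and Rpl11 restrain, had 1507 CPM in high glucose and 440.0 in the freshly isolated pool (3.43, 2.85 to 4.15). The p53 target Cdkn1a had 1983 and 2168 CPM (0.915, 0.834 to 1.00), and Trp53 had 842 and 644 CPM (1.31, 1.11 to 1.54). In galactose over low glucose no member of these 7 lists passed the fold in either direction.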

How the data were processed

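Per the labels' protocols, single cells were sorted into wells and tagged with a modified CEL-Seq2 protocol, with a molecular tag (read 1, bases 1 to 6) and a well barcode (bases 7 to 14). The authors deposited counts per gene and well, whole numbers with no normalization, and a well sheet that gave each well's condition. Not given in the sources used here were the aligner, counter, build, and treatment of molecular tags and of reads with several matches. The only tool named per the submitters' processing notes is edgeR, with no version or role.

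Wells with at least 500 gene counts and 250 genes were kept, 456 of 457. Wells of a condition were summed and scaled to CPM. Symbols came from GENCODE M21, which named 99.6% of 21216 rows. Pseudogene transcripts were aligned to coding sequences with BLAST 2.17.0. Ratios carry exact 95% intervals from scipy 1.17.1, not adjusted for picking genes by them; the steps were tested on simulated data. TMM factors came from edgeR 4.0.16. Named genes were the 6 with the highest mean CPM, for each comparison but galactose over high glucose the 5 higher and 5 lower whose interval bound nearest 1 lay farthest from 1, a set that was always looked up, the 6 pseudogene rows with the most counts, and those under 10 CPM throughout. Members, lists and rules were chosen with earlier results of these data known. The alternatives were other scalings, well filters, depths, folds and sets of rows. Some genes that the rule names are not reported here. No doublet caller was run.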

Additional observations from a re-analysis of the deposited data

How the results depend on the processing

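No result was tested, since each condition was 1 pool, and no replicate could be left out. No paired analysis was possible because each condition had 1 library. Summed log2 ratios, of 0.53 for high glucose over freshly isolated cells, -0.05 for galactose over low glucose, 0.29 for low glucose over high glucose and 0.24 for galactose over high glucose, kept their sign under every alternative run. In that order of comparisons they were 2.15, -0.01, 0.03 and 0.02 per spike-in count, 0.63, -0.09, 0.24 and 0.15 over the protein-coding total, 0.42, -0.03, 0.33 and 0.30 with equal weight per cell, 0.44, -0.02, 0.33 and 0.31 after thinning, 0.66, -0.07, 0.12 and 0.05 with all pseudogene rows, and 0.43, -0.03, 0.33 and 0.29 with the largest row of each family, an alternative added after seeing the data. For the same comparisons without galactose over low glucose, TMM factors gave 0.28, 0.39 and 0.35 and median-of-ratios factors 0.24, 0.35 and 0.28. With -ps rows added, galactose over low glucose was -0.07, low glucose over high glucose 0.19 and galactose over high glucose 0.12. Without members and their pseudogenes in the total, the first 3 were 0.63, -0.07 and 0.31. Spike-in scaling moved the median of all rows by 1.59 in high glucose over freshly isolated cells, and TMM and median-of-ratios factors by -0.25 and -0.29. Leaving out 1 plate row at a time, also added, gave 0.51 to 0.55, -0.09 to -0.02, 0.26 to 0.32 and 0.20 to 0.27.

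The 27 genes higher in high glucose became 13 with TMM factors, 12 with median-of-ratios factors, 65 per spike-in count and 10 at 2-fold, and with each pseudogene row counted as a member 97 by symbol and 240 in all. None was lower, but 4 were after thinning. The 11 higher in low glucose than in high glucose became 18 with TMM factors, 1 per spike-in count, 20 after thinning, 1 at 2-fold, 27 with -ps rows and 53 with all pseudogene rows; of lower genes there was 1 per spike-in count, 1 with equal weight per cell, 3 with -ps rows and 16 with all pseudogene rows, against 0. In galactose over low glucose, thinning gave 2 higher and 9 lower, and 1 was lower with median-of-ratios factors, with the protein-coding total, without members and pseudogenes in the total, with equal weight per cell and with all pseudogene rows. The share over all rows under these alternatives is not given here, so these counts cannot be set against it. Spike-in scaling in particular moved the median of all rows by 1.59 (log2) in high glucose over freshly isolated cells.

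The share of pseudogene rows, in galactose, low glucose, high glucose and freshly isolated cells, was 4.84, 5.12, 4.70 and 3.17% by symbol alone and 14.0, 14.8, 14.1 and 8.74% at 80% identity. Of named genes, 7 results crossed or reached a log2 ratio of 0. Per spike-in count these were, in low glucose over high glucose, Rpl10 (-0.04), Rpl5 (-0.02), Rpl7 (-0.02), Rps2 (-0.13) and Rps3 (-0.05). With pseudogene rows added these were Rpl5 in galactose over low glucose (0.00) and Rps2 in low glucose over high glucose (-0.20). The ratio intervals of Rpl10, Rpl5, Rpl7 and Rps3 per spike-in count held 1, as did that of Rpl5 with pseudogene rows (0.978 to 1.02). Those of Rps2 lay below 1, at 0.872 to 0.96 per spike-in count and 0.854 to 0.886 with pseudogene rows. The causes of these differences were not tested. Depth limits rows such as Rpl37a in freshly isolated cells, with 7 counts.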
